A study of Homo sapiens with 5 samples.

Results

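The DLK1-MEG3 locus is an imprinted stretch of human chromosome 14, and the values below are its RNA and its open chromatin in a mixture of lung adenocarcinoma nuclei. The genes were the 5 rows named MEG3, MEG8, MEG9, DLK1 and RTL1 among 36601 gene rows. The peaks were the 61 of 158342 that lay in a 600 kb window around these genes, from chr14:100610543 at the start of the first peak to 101175077 at the end of the last. The genes were chosen by their RNA counts, since MEG3 and MEG8 were already known from these same data to sit mostly in 1 set of nuclei, and the peaks were chosen by position. RNA levels between sets of nuclei are therefore given as a description. The ATAC counts took no part in choosing the genes or in forming RNA clusters 0 to 4.

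At an imprinted locus the copies inherited from the mother and the father are used differently, and the difference is held by DNA methylation at control regions rich in CG dinucleotides. In normal tissue the paternal copy gives the protein-coding DLK1, a membrane protein related to the Notch ligands, and RTL1, a protein derived from a retrotransposon. The maternal copy gives the long noncoding RNAs MEG3, MEG8 and MEG9, which run through a large cluster of microRNA and small nucleolar RNA genes, and a control region that lies between DLK1 and MEG3 is methylated on the paternal copy. MEG3 is known as an RNA that is often lost in tumours. The counts were not divided by parental copy, so nothing below says which copy a read came from.

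A549, HCC827, H838, H1975 and H2228, all established lines from lung adenocarcinoma, were grown apart without treatment, mixed in equal numbers and carried through the 10x Multiome assay, which reads RNA and Tn5-accessible DNA (ATAC) from the same nucleus. The GEMs (droplets) were split into an 80% portion with 6557 barcodes and a 20% portion with 1286. Each portion had 1 RNA and 1 ATAC library, so the portions repeat 1 mixture technically and no test across samples was possible. The cells had been frozen before nuclei were prepared, and no normal lung sample stood beside the tumour lines.

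The genotype calls that tie a nucleus to its line were not used here, and clusters of the 80% RNA stood in for the lines. Clusters 0 to 4 held 2476, 1458, 1452, 838 and 333 nuclei, with median depths of 15403, 9148, 12672, 15894 and 12063 UMIs (unique RNA molecules) per nucleus. Cluster 1 was A549-like, since its summed level of 5 aldehyde dehydrogenase and aldo-keto reductase markers was 14701 CPM (counts per 1000000 counts of the cluster) and 522 to 2748 elsewhere. All 5 were highest there but unevenly, from 1.39-fold over the next cluster (ALDH3A1) to 26.6-fold (ALDH1A1). Cluster 4 was HCC827-like, with 13207 CPM of EGFR and 3 neighbours of EGFR on 7p and 583 to 1105 elsewhere. Clusters 0, 2 and 3 were left unnamed, and cluster 0 was led by NLGN1, a synaptic adhesion gene, at 36.1-fold over the next cluster. A doublet caller marked 385 nuclei (5.87%) of the 80% portion, at 7.96%, 4.39%, 0.620%, 10.9% and 7.21% in clusters 0 to 4. The portions shared 159 barcodes. All 6 epithelial markers were detected and summed to 1675 to 10474 CPM, against 14.2 to 45.7 for 6 leukocyte markers and 1.90 to 11.6 for 4 endothelial markers. The epithelial markers were uneven: EPCAM ran from 23.8 to 751 CPM and CDH1 from 4.86 to 197, both lowest in cluster 2 and highest in cluster 4.

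The sequences printed here are the start of MEG3 and the 3 locus peaks called for 1 cluster by a 4-fold rule given further on. The first is the RefSeq promoter window of MEG3 (GRCh38.p14, chr14:100825858-100826157, plus strand, 250 bases before to 50 after a start). The others are the middle 300 bases of 3 peaks on the plus strand of hg38, described further on: peak 25 (chr14:100810988-100811287), peak 40 (chr14:100972290-100972589) and peak 51 (chr14:101058714-101059013). Capitals mark CG dinucleotides, the sites that imprinting methylates.
MEG3 promoter: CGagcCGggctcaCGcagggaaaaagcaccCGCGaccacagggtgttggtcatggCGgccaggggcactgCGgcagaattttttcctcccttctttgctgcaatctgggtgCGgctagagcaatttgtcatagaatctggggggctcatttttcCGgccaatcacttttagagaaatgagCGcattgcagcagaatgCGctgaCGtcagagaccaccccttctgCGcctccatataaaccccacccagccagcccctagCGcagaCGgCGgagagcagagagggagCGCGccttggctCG
Peak 25: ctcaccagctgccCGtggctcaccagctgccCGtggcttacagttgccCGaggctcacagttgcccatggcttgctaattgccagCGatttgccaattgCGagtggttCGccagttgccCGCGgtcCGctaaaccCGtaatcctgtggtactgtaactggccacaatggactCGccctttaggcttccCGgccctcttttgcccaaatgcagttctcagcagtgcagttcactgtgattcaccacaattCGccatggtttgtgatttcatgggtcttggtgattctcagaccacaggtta
Peak 40: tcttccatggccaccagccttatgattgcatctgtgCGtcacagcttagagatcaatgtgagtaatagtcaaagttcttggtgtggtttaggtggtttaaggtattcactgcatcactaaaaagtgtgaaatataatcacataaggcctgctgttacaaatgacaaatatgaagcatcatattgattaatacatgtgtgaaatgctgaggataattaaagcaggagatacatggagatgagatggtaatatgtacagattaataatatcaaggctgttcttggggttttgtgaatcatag
Peak 51: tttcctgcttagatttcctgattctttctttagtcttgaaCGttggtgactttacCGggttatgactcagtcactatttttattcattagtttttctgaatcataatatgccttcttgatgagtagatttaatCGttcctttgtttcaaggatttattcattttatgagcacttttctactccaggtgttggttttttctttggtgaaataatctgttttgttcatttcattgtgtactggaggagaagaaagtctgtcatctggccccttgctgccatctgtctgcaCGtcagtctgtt
The MEG3 window held 19 CG dinucleotides, more than 89.1% of the middle windows of the 158289 peaks whose sequence was in the reference used, whose median was 4. Peak 25 held 13, peak 51 held 4 and peak 40 held 1. Searched on both strands, the MEG3 window matched the cAMP response element TGACGTCA 1 time, as 0.624% of all middle windows did. Among the middle windows of the 61 locus peaks, that of the peak over the MEG3 start was the 1 with a match (1.64%). The methylation-dependent zinc finger motif TGCCGC of ZFP57 (GCGGCA on the other strand) also matched 1 time in the MEG3 window, without overlapping the first motif. In the middle windows this motif was found for 3 of 61 locus peaks (4.92%) and for 7.18% of all peaks. The peak over the MEG3 start was not among the 3, because the match in the MEG3 window lies outside its middle window. The printed windows of peaks 25, 40 and 51 matched neither motif. RefSeq promoter windows were found for 3 of the 5 genes.

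MEG3 (ENSG00000214548, chr14:100779410-100861031, plus strand) is the long noncoding RNA at the start of the maternal transcription unit. In the 80% portion it gave 12810 UMIs in cluster 0, 173 in cluster 1, 20 in cluster 2, 194 in cluster 3 and 119 in cluster 4. As levels this was 307 CPM (95% exact Poisson interval 302 to 312), 11.7 (10.0 to 13.6), 1.04 (0.638 to 1.61), 13.0 (11.2 to 15.0) and 24.2 (20.0 to 28.9). Cluster 0 stood 12.7-fold (10.6 to 15.4) above cluster 4, the intervals of clusters 1 and 3 overlapped, and cluster 2 was lowest. These intervals and those that follow cover counting error only.

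The order below cluster 0 depended on nuclei called as doublets. With those left out, MEG3 read 322 CPM in cluster 0, 11.9 in cluster 1, 0.581 in cluster 2, 0.492 in cluster 3 and 7.34 in cluster 4. Cluster 0 was then 27.1-fold (23.2 to 31.9) above cluster 1, the A549-like nuclei, which hardly moved. The doublet caller was given all genes, those of the locus among them, so its calls are not independent of MEG3. Of the nuclei with 5 or more MEG3 UMIs, the caller had marked 16 of 16 in cluster 3 and 9 of 12 in cluster 4. In cluster 1 the MEG3 was spread thinly instead, with 122 nuclei at 1 to 4 UMIs, 6 of them called doublets, and 2 nuclei at 5 or more.

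MEG8 (ENSG00000225746, chr14:100894770-101038859, plus strand) is the long noncoding RNA that follows and hosts small nucleolar RNAs. It gave 11761, 184, 30, 191 and 94 UMIs in clusters 0 to 4, or 282 CPM (277 to 287), 12.5 (10.7 to 14.4), 1.57 (1.06 to 2.24), 12.8 (11.1 to 14.8) and 19.1 (15.4 to 23.4). The order was that of MEG3, and cluster 0 was 14.8-fold (12.1 to 18.3) above cluster 4. Without doublet calls the levels were 295, 12.4, 0.951, 1.72 and 9.94 CPM, and the fold over cluster 1 was 23.8 (20.4 to 27.9).

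MEG3 and MEG8 gave similar numbers of UMIs where both were abundant. MEG3 made 52.1% (exact binomial interval 51.5 to 52.8) of their joint UMIs in cluster 0 and 48.5% (43.2 to 53.8) in cluster 1, intervals that overlapped. The share was 40.0% (26.4 to 54.8) in cluster 2, 50.4% (45.3 to 55.5) in cluster 3 and 55.9% (48.9 to 62.6) in cluster 4. Without doublet calls cluster 3 fell to 22.2% (8.62 to 42.3), from 6 MEG3 and 21 MEG8 UMIs, below the interval of cluster 0, and cluster 4 read 42.5% (31.0 to 54.6). Of the nuclei with a MEG3 UMI, 2075 of 2279 (91.0%) in cluster 0 and 50 of 124 (40.3%) in cluster 1 also held a MEG8 UMI.

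MEG9 (ENSG00000223403, chr14:101042908-101072937, plus strand), the last of the maternal long noncoding RNAs, was far sparser. It gave 311 UMIs in cluster 0, or 7.46 CPM (6.65 to 8.33), and 6, 1, 7 and 6 UMIs in clusters 1 to 4. The next level was 1.22 CPM (0.447 to 2.65) in cluster 4, for a fold of 6.12 (2.78 to 16.8), and 6.48 without doublet calls. MEG9 UMIs were seen in 11.3% of cluster 0 nuclei and in 0.0689% to 1.5% of the nuclei of the other clusters.

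Among the paternal coding genes, RTL1 (ENSG00000254656, chr14:100879753-100903722, minus strand) gave 276 UMIs in cluster 0, 2 in cluster 1, 1 in cluster 2, 20 in cluster 3 and 10 in cluster 4. Its levels were 6.62 CPM (5.86 to 7.45), 0.136 (0.0164 to 0.489), 0.0522 (0.00132 to 0.291), 1.34 (0.819 to 2.07) and 2.03 (0.974 to 3.73). Cluster 0 was 3.26-fold (1.75 to 6.87) above cluster 4. Without doublet calls RTL1 kept 15 UMIs in cluster 3 (1.23 CPM) and 10 in cluster 4 (2.37 CPM), while MEG3 in cluster 3 fell from 194 UMIs to 6. RTL1 overlaps the first part of MEG8 on the other strand. The labels and methods do not say whether counting used strand, so whether reads from the overlap were kept apart is not known here.

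DLK1 (ENSG00000185559, chr14:100725705-100738224, plus strand) was close to undetected. Its 3 UMIs lay in 3 nuclei of cluster 0, 0.0719 CPM (0.0148 to 0.210). No UMI was seen in clusters 1 to 4, which, with 3 nuclei taken as the limit of a count of 0, allows a share of nuclei with a UMI of up to 0.206%, 0.207%, 0.358% and 0.901% at this depth. The 20% portion held 2 more DLK1 UMIs, again in cluster 0.

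**Figure D1:**
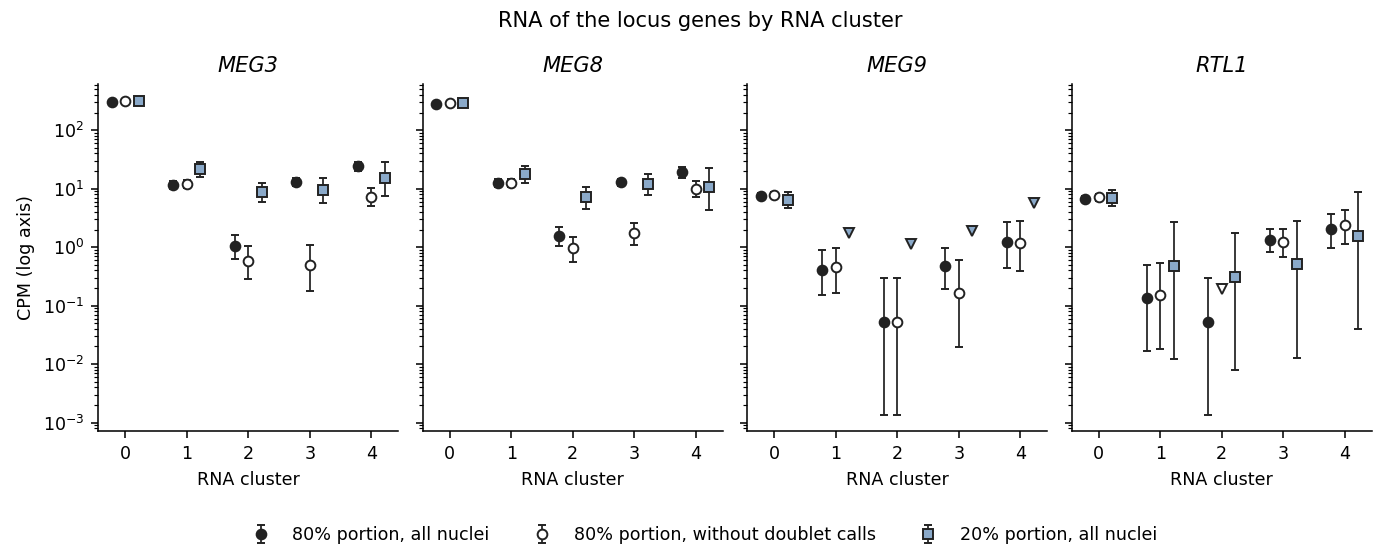
Levels of MEG3, MEG8, MEG9 and RTL1 (CPM, log axis) in RNA clusters 0 to 4, with 95% exact Poisson intervals, for all nuclei of the 80% portion, for those nuclei without doublet calls, and for all nuclei of the 20% portion. Downward triangles mark groups with 0 UMIs at the upper limit of their interval. MEG3 and MEG8 lie near 300 CPM in cluster 0 in all 3 sets, and in cluster 3 MEG3 drops from 13.0 to 0.492 CPM without doublet calls.

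The remaining genes of the window gave little RNA. Of its 15 gene rows, 5 reached 30 UMIs in a cluster, the minimum for a call. A gene was called for a cluster when its CPM there was at least 4 times that of every other cluster, which 7.07% of all 18541 genes tested met for some cluster and 1.42% met for cluster 0. Of the 4 members that reached the minimum, 3 were called (MEG3, MEG8 and MEG9, all for cluster 0) and RTL1 was not. These are the values that chose the locus, so nothing is read from the count. AL117190.2, an antisense gene inside MEG3, was also called for cluster 0, with 222 of its 232 UMIs there and 8.74-fold over the next level, and its reads cannot be told apart from those of MEG3 if strand was ignored. The other 9 neighbours had 24 UMIs or fewer each. The median fold over the next cluster was 8.74 over the 5 genes and 1.30 over all genes. Since 4 of the 5 are members chosen by their RNA, nothing is read from this contrast either. GENCODE 44 lists 100 microRNA and small nucleolar RNA genes in the window, for which the table has no rows.

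Nucleus by nucleus, MEG3 was broadly present in cluster 0 and not held in a small subset. At least 1 MEG3 UMI was seen in 92.0% (90.9 to 93.1) of its 2476 nuclei, with a median of 4 UMIs, a middle range of 2 to 7 and a maximum of 35. Nuclei with 10 or more made 13.0%, and 197 nuclei (7.96%) had none. The share with a MEG3 UMI was 8.50% in cluster 1, 0.964% in cluster 2, 4.65% in cluster 3 and 6.61% in cluster 4. Cluster 2 had the lowest share, at a median of 12672 UMIs per nucleus against 15403 in cluster 0. The share in cluster 1 was above it at a lower median of 9148. In the 20% portion 13 of 303 nuclei of cluster 2 held 28 MEG3 UMIs. How much of the low values was free RNA was not tested. MEG8 was seen in 88.0% of cluster 0 nuclei, with a median of 4 and a maximum of 40 UMIs.

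**Figure D2:**
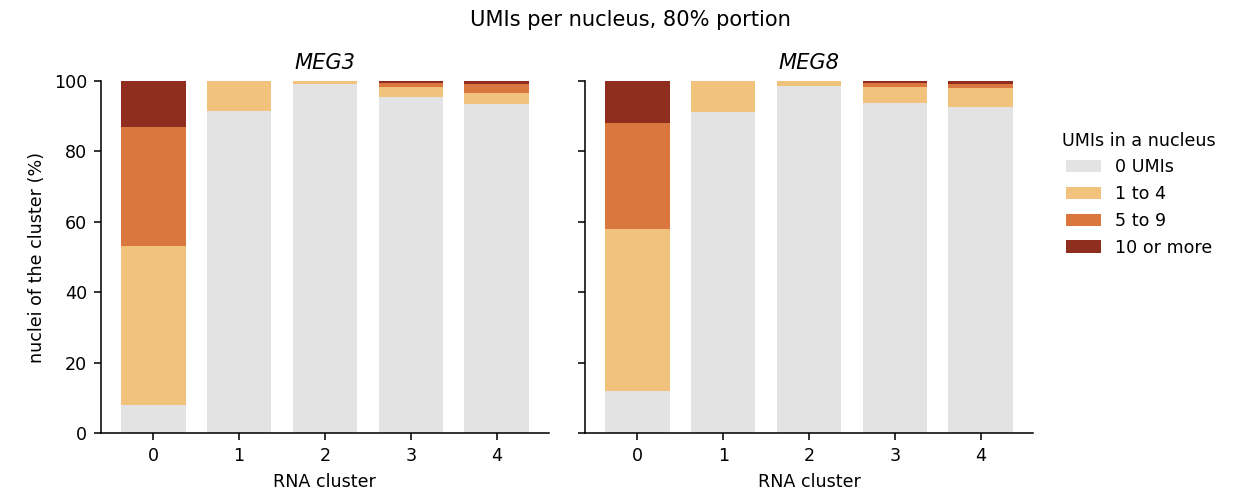
Share of nuclei (%) with 0, 1 to 4, 5 to 9 and 10 or more UMIs of MEG3 (left) and MEG8 (right) in each RNA cluster of the 80% portion. In cluster 0 the nuclei without a UMI are 7.96% for MEG3 and 12.0% for MEG8, and in every other cluster they exceed 90%.

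The share of nuclei with a MEG3 UMI rose with depth, while the level hardly moved. When the nuclei of cluster 0 were ordered by depth and cut into 4 sets of 619, MEG3 was seen in 82.9%, 93.7%, 94.99% and 96.6% of them from the shallowest set to the deepest. Its level was 314, 313, 312 and 298 CPM. Thinned to 5000 UMIs per nucleus, which left out 39 nuclei of cluster 0, a MEG3 UMI was seen in 72.1% (70.3 to 73.9), 4.84%, 0.488%, 2.63% and 4.01% of the nuclei of clusters 0 to 4. At that fixed depth MEG3 averaged 1.58 UMIs in cluster 0 with a variance 1.59 times the mean, where the median ratio of 502 genes with means of 1 to 2 was 1.15. Nuclei at 0 were 27.9% where a Poisson count of that mean gives 20.7%. The ratio of MEG8 was 1.82.

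Cluster 0 was not uniform. Divided at a finer resolution of its RNA it gave a set 0a of 1210 nuclei, with more PDE10A, CYP24A1 and DIO2, and a set 0b of 1186 nuclei, with more GRIK2, IL13RA2 and CHI3L1. MEG3 read 267 CPM (260 to 275) in 0a and 353 (345 to 361) in 0b, and MEG8 269 (262 to 277) and 303 (296 to 310). Without doublet calls, which numbered 99 in 0a and 19 in 0b, MEG3 read 277 and 356 CPM. Both sets stood far above clusters 1 to 4, and the 3 DLK1 UMIs fell in 0b. Cluster 3 was divided by the ATAC clusters of its nuclei, not by RNA, into 3a with 441 nuclei, rich in the epithelial genes EPCAM and CDH1, and 3b with 342 nuclei, rich in TAGLN and LOX. Without doublet calls MEG3 was near the level of cluster 2 in both, with 4 UMIs (0.588 CPM) in 3a and 2 UMIs (0.412 CPM) in 3b. RTL1 then had 13 UMIs in 3a (1.91 CPM, 1.02 to 3.27) and 1 in 3b.

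Within cluster 0, MEG8 was the gene whose counts followed MEG3 most closely. Over 2437 nuclei at 5000 UMIs each, Spearman's rho between MEG3 and MEG8 was 0.257, the highest of 4517 genes seen in at least 20% of the nuclei. The next were MALAT1 (0.157), LAMA3 (0.117), LIMCH1 (0.113) and NEAT1 (0.111), and 95% of the genes lay between -0.0578 and 0.0580. MALAT1 and NEAT1 are abundant nuclear noncoding RNAs, and the lowest gene was the ribosomal protein gene RPL7 (-0.119). The sparse genes gave weaker values, 0.0764 with RTL1 and 0.0525 with MEG9. All of these are descriptions within 1 library, where nuclei share their preparation.

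Over the 5 clusters, the 8 genes most like MEG3, by Pearson's r of log2(CPM + 1) among 10434 genes with at least 1000 UMIs, were HPS3, AL158152.1, MEG8, ATG16L2, LINC01473, METTL26, FGFR1OP and MOCS2, with r from 0.994 to 0.998. With 5 points, 11 genes exceeded 0.99. In the 20% portion r was 0.9901 for MEG8 and 0.991 for FGFR1OP, and 0.645 to 0.948 for the other 6. HPS3 ran from 31.3 to 78.2 CPM across the clusters and MEG8 from 1.57 to 282, so the likeness was one of order and spacing and not of size. Nuclei called as doublets were kept in these values. Without them the order of MEG3 below cluster 0 was another, with cluster 1 next, so the likeness in order is that of all nuclei only.

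The 20% portion gave the same picture for the abundant genes. Its nuclei were placed in the clusters of the 80% portion without the genes of the locus. MEG3 read 318 CPM (304 to 332) in cluster 0 and 21.8, 8.75, 9.63 and 15.5 in clusters 1 to 4, a fold of 14.6 (10.9 to 20.0) over cluster 1. Without doublet calls the fold was 26.8 (17.8 to 42.4). MEG8 read 288 CPM (275 to 301) in cluster 0, 15.97-fold (11.6 to 22.6) over cluster 1. All 41 MEG9 UMIs lay in cluster 0, and RTL1 had 45 UMIs there and 1 in each other cluster. Of 5 locus genes that reached the minimum, MEG3 and MEG8 were called, where 4.24% of 13392 genes were. With 646439 UMIs in all in cluster 4, 3 UMIs were worth 4.64 CPM, too coarse for calls on MEG9 and RTL1.

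The clusters ranked differently by accessibility than by RNA. Summed over the 61 peaks, the locus read 409 ATAC CPM (peak counts per 1000000 ATAC counts) in cluster 0 (399 to 420), 186 in cluster 1, 160 in cluster 2, 483 in cluster 3 (464 to 502) and 341 in cluster 4. Cluster 3 was highest, 1.18-fold (1.12 to 1.24) above cluster 0, although its MEG3 RNA was near the level of cluster 2 without doublet calls. Clusters 1 and 2 were lowest, yet cluster 1 had more MEG3 RNA than clusters 2 and 3 without doublet calls. In the intervals 2 counts were taken as 1 fragment, since 90.1% of nonzero ATAC values were even. Without doublet calls the sums were 421, 181, 157, 490 and 338. Set 3a read 587 and set 3b 319. Both sets were formed by ATAC counts with the peaks of the window left out, and these values are given as a description. The 34 locus peaks of the 20% portion, of which 32 overlapped an 80% peak, summed to 402, 185, 149, 461 and 396.

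The whole chromosome moved in the same direction in both assays. Chromosome 14 took 4.32%, 3.33%, 3.26%, 4.37% and 3.54% of the RNA in clusters 0 to 4, and 4.50%, 3.42%, 3.22%, 4.35% and 3.65% of the ATAC counts. The locus made 1.41% of the chromosome 14 RNA in cluster 0 and 0.00896% to 0.138% in the others, and 0.496% to 1.11% of its ATAC counts. In the 600 kb below the window the RNA ran from 228 to 318 CPM and the ATAC from 629 to 968, and in the 600 kb above from 85.8 to 141 and from 219 to 356. Both 600 kb flanks thus varied less than 2-fold in RNA, where the window ran from 2.93 to 610 CPM. In the 200 kb below, where RNA was sparse, it ran from 1.42 to 4.70 CPM. The members were chosen by their RNA, so nothing is read from this contrast of window and flanks. Whether copy number of the chromosome took part in these values was not tested. The 5 fibroblast markers, none of them without a UMI, summed to 244 CPM in cluster 0 and to 20.4, 24.6, 118 and 22.9 in clusters 1 to 4. Nearly all of this in cluster 0 was the collagen gene COL1A1 (243 CPM), while COL1A2 and PDGFRB were called for cluster 3, and the part of these markers in the result was not tested.

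**Figure D3:**
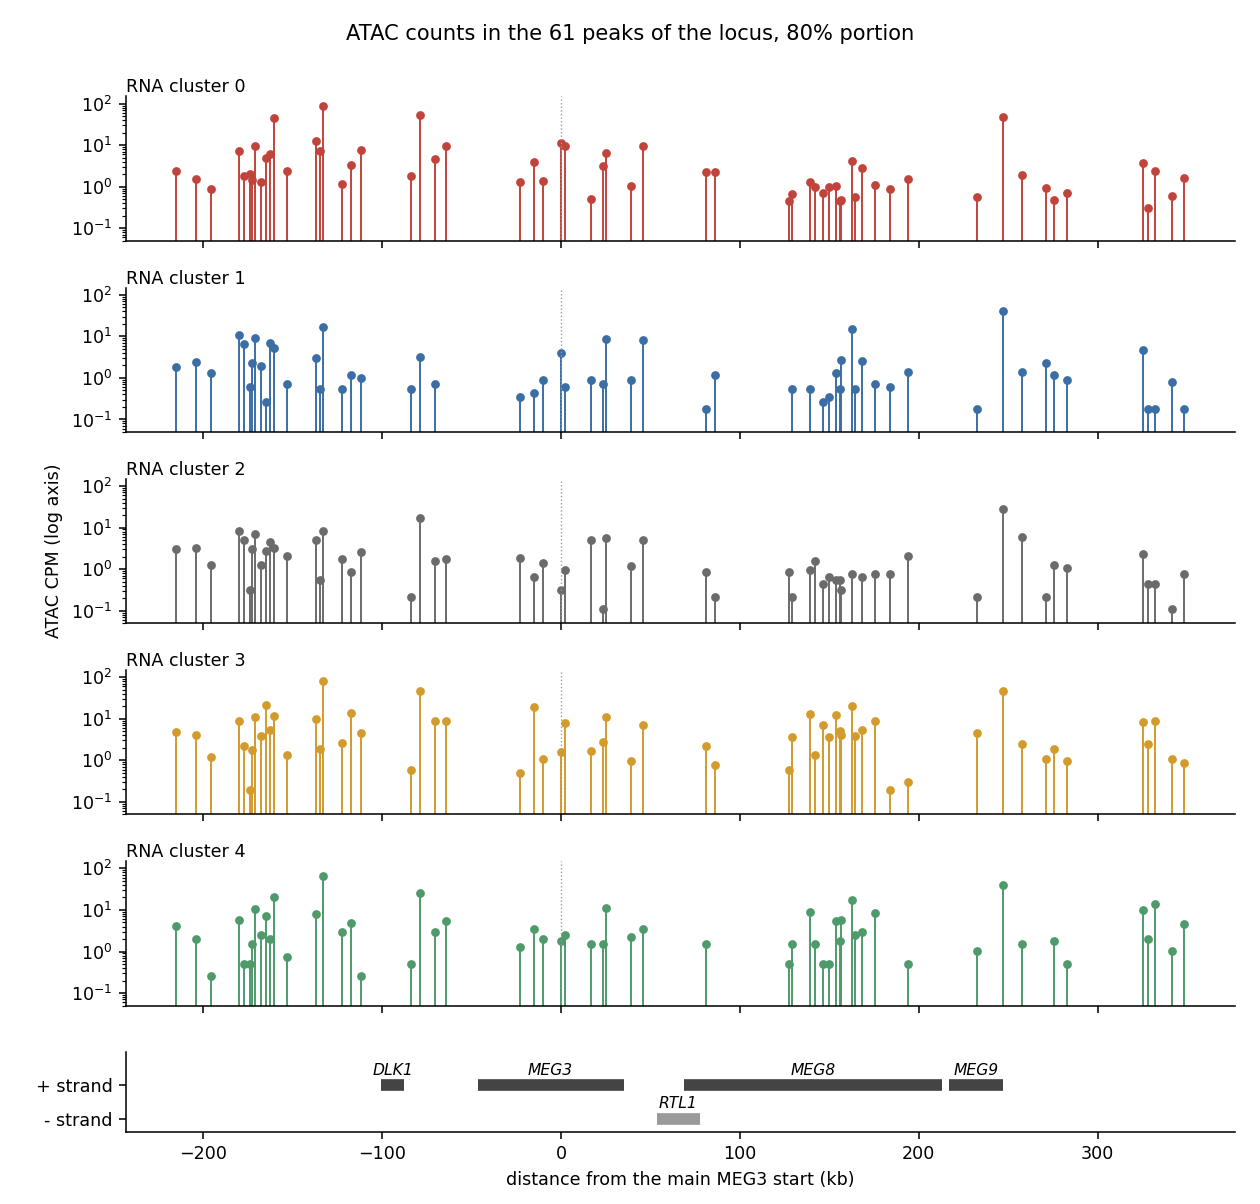
ATAC CPM (log axis) in each of the 61 peaks of the locus, by distance in kb from the main MEG3 start, for RNA clusters 0 to 4 of the 80% portion, with the 5 genes and their strands beneath. Peaks without a count in a cluster are left out. The peak at the MEG3 start reads 11.5 in cluster 0 and 0.320 in cluster 2, and the peaks over MEG8 sum to 93.1 in cluster 3 and 22.8 in cluster 0.

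The main start of MEG3 lies in an open peak. Of 50 annotated MEG3 transcripts, 9 begin at position 100826118 and 27 within 100 bases of it. Peak 27 (chr14:100825635-100826543, an exon of MEG3), which contains the promoter window printed above, read 11.5 ATAC CPM in cluster 0 (9.82 to 13.4), 3.89 in cluster 1 (2.44 to 5.89), 0.320 in cluster 2 (0.0517 to 1.54), 1.57 in cluster 3 (0.677 to 3.09) and 1.76 in cluster 4 (0.549 to 5.16). Cluster 0 was 2.95-fold above cluster 1, under the 4-fold rule. A count was found in 6.83%, 1.51%, 0.138%, 0.955% and 1.20% of the nuclei of clusters 0 to 4. Median ATAC counts per nucleus were 11498.5, 7357.5, 6516, 10487 and 10053 there, and shares of nuclei with a count were not matched for this depth. Without doublet calls peak 27 read 12.3, 4.21, 0.325, 1.21 and 2.03 ATAC CPM. In the 20% portion the matching peak read 10.3, 4.55, 0.958, 0 and 0. Cluster 0 was highest and A549-like cluster 1 next in both portions, which was also the order of MEG3 RNA without doublet calls in clusters 0 and 1. The second place was within counting error, since the 80% interval of cluster 1 overlapped those of clusters 3 and 4. Its 20% value rested on 10 counts.

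Peak 28 (chr14:100827829-100828715), 2.2 kb further into MEG3, had another pattern. It read 9.33, 0.619, 0.960, 8.04 and 2.52 ATAC CPM in clusters 0 to 4, so clusters 0 and 3 overlapped (7.85 to 11.1 and 5.77 to 10.9). A count was found in 5.49% of cluster 0 nuclei and 4.53% of cluster 3 nuclei. Cluster 3 was therefore within counting error of cluster 0 at peak 28, while at peak 27 its interval lay below that of cluster 0.

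Within clusters 0 and 1, MEG3 pooled over the nuclei with a count in peak 27 read higher than over the rest. The intervals leave out the spread between nuclei, which for MEG3 in cluster 0 was wider than Poisson. In cluster 0 the 169 nuclei with a count read 337 CPM (317 to 358) and the 2307 without read 305 (299 to 310). In cluster 1 the 22 nuclei with a count had 10 MEG3 UMIs, 42.2 CPM (20.2 to 77.5), against 11.2 (9.57 to 13.1) in the other 1436. Some other peaks showed a like difference in cluster 0, with 333 and 299 CPM of MEG3 for nuclei with and without a count in peak 12, 326 and 299.7 for peak 21, and 341 and 305 for peak 28. Lower MEG3 with a count was seen at peak 8 (279 and 309), peak 52 (295 and 311) and peak 37 (254 and 307, from 10 nuclei with a count). In cluster 0 the difference was therefore not particular to the start of MEG3. In cluster 1, MEG3 read 94.5 and 11.2 CPM with and without a count in peak 37, from 8 UMIs in the 3 nuclei with a count. It read 19.3 and 10.2 for peak 52, and 19.7 and 11.6 for peak 21, from 4 UMIs. Peaks 8, 12 and 16 went the other way, at 5.04 and 12.0 for peak 8. No MEG3 UMI was held by the few nuclei with a count in peaks 34, 35, 38, 40, 41 and 42. A higher value was therefore not particular to peak 27 in cluster 1 either. Nuclei called as doublets were kept in all of these values. Few nuclei hold a count in any 1 peak, and the rho between MEG3 CPM and the ATAC share of the locus over the 2476 nuclei of cluster 0 was 0.0908.

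**Figure D4:**
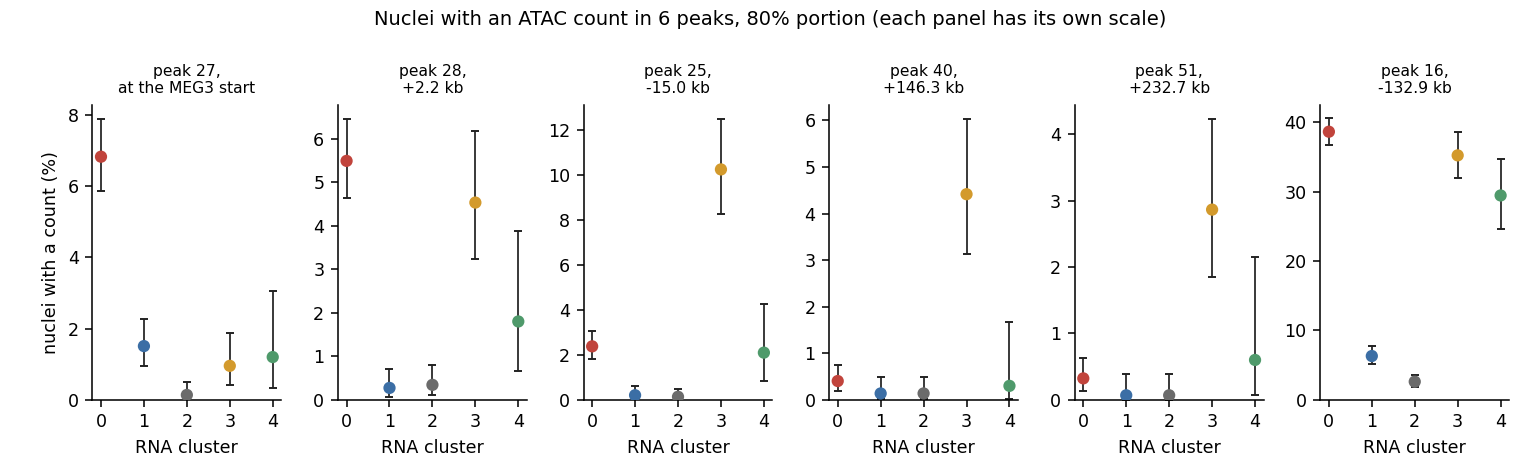
Share of nuclei (%) with an ATAC count in peaks 27, 28, 25, 40, 51 and 16, by RNA cluster of the 80% portion, with 95% exact binomial intervals. Distances are from the main MEG3 start and each panel has its own scale. The shares are not matched for ATAC depth, which differed between clusters. Cluster 0 leads at peak 27 (6.83%), the intervals of clusters 0 and 3 overlap at peak 28, and cluster 3 leads at peaks 25 (10.3%) and 40 (4.42%).

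By the 4-fold rule 3 of the 52 locus peaks with at least 30 counts in a cluster were called, all for cluster 3 and none for cluster 0. Over all 129446 peaks tested 8.73% were called for some cluster, 1.6% for cluster 3 and 1.16% for cluster 0, so the total share in the locus (3 of 52) was not above the background. The median fold over the next cluster was 1.45 in the locus and 1.42 over all peaks. Cluster 0 was highest at 32.7% and cluster 3 at 36.5% of the tested locus peaks, against 23.8% and 19.2% of all tested peaks, and cluster 1 at 5.77% against 18.8%. At a 2-fold rule 18 locus peaks were called, where 26.6% of all peaks were. At a 10-fold rule no peak of the locus was called, and of its genes MEG3 and MEG8 were, where 2.17% of all genes were.

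Peak 25 (chr14:100810678-100811597) lies 15.0 kb before the main MEG3 start, within an intron of the longest MEG3 transcripts and between DLK1 and that start. It read 18.7 ATAC CPM in cluster 3 (15.3 to 23.0) and 3.96 in cluster 0, 0.442 in cluster 1, 0.640 in cluster 2 and 3.53 in cluster 4, a fold of 4.73. A count was found in 10.3% of cluster 3 nuclei and in 2.38% of cluster 0 nuclei. Without doublet calls it read 18.96 in cluster 3 and 0.216 to 4.21 in the others. It read 25.3 in 3b and 15.2 in 3a, the sets formed by ATAC counts outside the window. In the 20% portion the matching peak read 5.00, 0, 1.92, 13.3 and 1.42, highest again in cluster 3 but only 2.66-fold.

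Peaks 40 and 51 lie in the body of the maternal unit. Peak 40 (chr14:100972002-100972877, an exon of MEG8) read 7.06 ATAC CPM in cluster 3 (4.95 to 9.78) and 0.265 to 0.688 in the others, a fold of 9.35. Without doublet calls it kept 6.88 in cluster 3. Peak 51 (chr14:101058375-101059352, an intron of MEG9) read 4.61 in cluster 3 (3.02 to 7.004) and 0.177 to 1.01 in the others, a fold of 4.58. Just under the rule were peak 15 (3.84-fold, cluster 0), which lies 135 kb before MEG3, and peak 41 (3.77-fold, cluster 3) over MEG8. Of the 21 tested peaks of the 20% portion 1 was called, where 3.8% of 53750 were. That peak, which matched peak 18 of the 80% set (chr14:100708148-100709016), read 36.3 in cluster 3 and 1.36 to 3.22 in the others, while peak 18 itself was 2.81-fold. Of the 3 peaks called in the 80% portion, only the match of peak 25 had enough counts to be tested in the 20% portion, and it was not called. The match of peak 40 held 25 counts and was highest in cluster 3 at 9.07, and peak 51 had no matching peak.

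The 9 peaks within 1000 bases of an annotated MEG8 start were peaks 34 to 42. Of the 7 with at least 30 counts in a cluster, 5 were highest in cluster 3, with folds from 1.44 to 9.35, and 2 in cluster 0, with folds of 1.05 and 2.01. Of all tested peaks 19.2% were highest in cluster 3 and 23.8% in cluster 0. Peaks 37, 40 and 41 reached the minimum in cluster 3 only, and peaks 34 and 35 in cluster 0 only. The minimum itself favoured those clusters, so nothing is read from the tally. Peaks 38 and 42 reached it in both, at 13.0 and 12.3 ATAC CPM in cluster 3 and 1.27 and 1.07 in cluster 0. No peak lay within 1000 bases of an annotated start of DLK1, RTL1 or MEG9.

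The 5 peaks with most counts differed in pattern. Peak 16 (chr14:100692810-100693708), 133 kb before MEG3 and in no gene, held 3882 counts and read 86.3, 17.2, 8.10, 82.1 and 67.0 ATAC CPM in clusters 0 to 4. Peak 21 (chr14:100746825-100747709), between DLK1 and MEG3, read 53.4, 3.27, 17.3, 47.7 and 24.9. Clusters 0 and 3 were high at both, cluster 1 was lowest at peak 21 and cluster 2 at peak 16. Peak 12 (chr14:100665425-100666343, an intron of LINC00523) differed from these, with 46.0 in cluster 0, 20.7 in cluster 4 and 3.20 to 11.6 in the rest, a fold of 2.23. Peak 52 (chr14:101072948-101073858), just beyond MEG9, read 48.8, 40.8, 28.4, 45.8 and 40.0. Peak 8 (chr14:100654491-100655410), the fifth by counts, read 6.82 to 11.2. In the 20% portion the match of peak 21 was highest in cluster 4, at 61.1, with 48.7 in cluster 0 and 45.3 in cluster 3. The match of peak 16 kept the order of the clusters.

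Summed by segment, clusters 0 and 3 were furthest apart over MEG8. The 19 peaks before DLK1 read 206 ATAC CPM in cluster 0, 73.9 in cluster 1, 63.2 in cluster 2, 192 in cluster 3 and 141 in cluster 4. The sets within cluster 3 lay on either side of cluster 0 there, at 248 (231 to 267) in 3a and 105 (91.2 to 122) in 3b. The 7 peaks from DLK1 to the MEG3 start read 76.5, 6.19, 24.6, 86.2 and 40.5, and cluster 1, with the second highest MEG3 RNA without doublet calls, was lowest there. The 7 peaks from the MEG3 start to MEG8 read 41.8, 24.1, 18.4, 33.0 and 24.2, with cluster 0 highest. Over MEG8 itself the 17 peaks read 22.8 (20.4 to 25.4 by counting error), 28.5, 12.1, 93.1 and 59.7. Cluster 0, with most MEG8 RNA, thus had a lower ATAC CPM over MEG8 than clusters 3 and 4. The 11 peaks after MEG8 read 62.3, 52.8, 41.2, 78.5 and 76.1. In the 20% portion the peaks over MEG8 read 9.83 in cluster 0, 88.3 in cluster 3 and 58.2 in cluster 4. Its peaks from DLK1 to the MEG3 start were highest in cluster 4, at 89.5 (62.2 to 128), with 71.4 in cluster 0 and 71.3 in cluster 3.

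**Figure D5:**
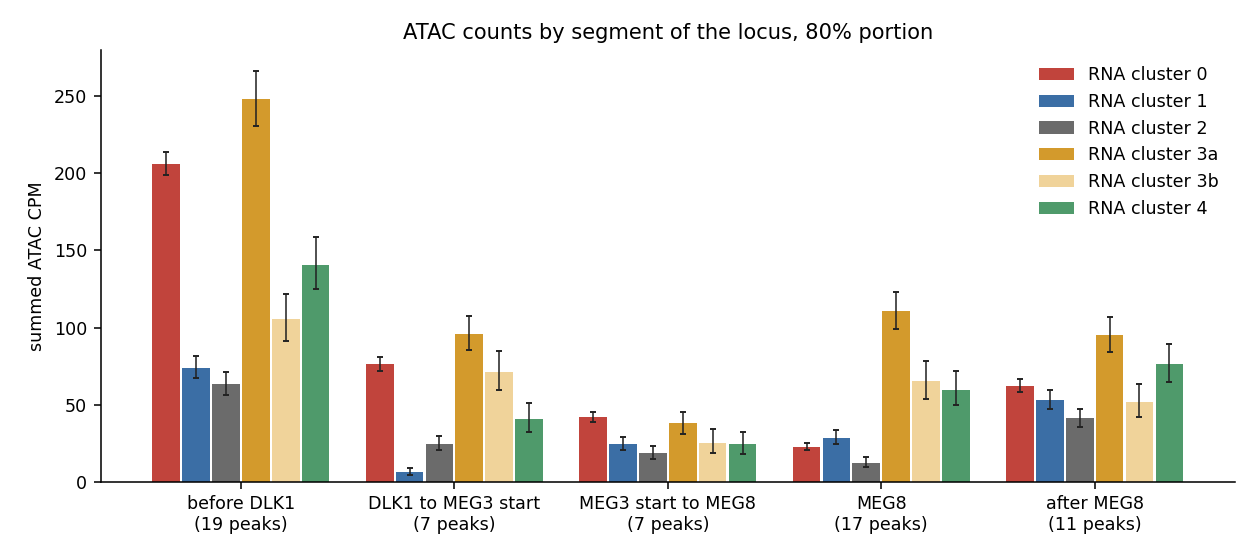
Summed ATAC CPM in 5 segments of the locus for RNA clusters 0, 1, 2 and 4 and for the sets 3a and 3b of cluster 3, 80% portion, with 95% exact Poisson intervals in which 2 counts are 1 fragment. Before DLK1 cluster 0 reads 206 and set 3a 248, and over MEG8 cluster 0 reads 22.8 and set 3a 110.5.

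Of 26 other imprinted genes 21 reached the minimum and 1 was called, NDN, a paternally expressed gene of the Prader-Willi region, at 32.7 CPM in cluster 0 and 4.47 in the next, a fold of 7.31. With 7.07% of all genes called for some cluster, 1 of 21 was not above the background. The genes with most UMIs were GNAS, a G protein subunit (383, 328, 904, 427 and 269 CPM in clusters 0 to 4), PHLDA2 (218, 137, 87.1, 223 and 198) and IGF2R (164, 69.2, 141, 112 and 116). The median fold of the list was 1.38, against 1.30 over all genes. IGF2 had no UMI.

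Factors that keep imprints and genes of the Notch pathway, to which DLK1 is related, were listed beside the locus. Of 12 imprint maintenance and DNA methylation factors 11 reached the minimum and none was called, a count near the background of 7.07% for a list this short. DNMT1, the maintenance methyltransferase, read 294, 159, 253, 389 and 403 CPM, TRIM28 read 99.0, 188, 245, 339 and 192, and SMCHD1 read 82.4 to 121. ZFP57 had no UMI. Of 14 Notch pathway genes 12 reached the minimum and none was called, again near 7.07%. HES1, a Notch target, read 123 to 184 CPM, JAG1, a ligand, read 54.3, 126, 25.6, 175 and 48.5, and NOTCH2, a receptor, read 50.1, 33.9, 123, 54.8 and 92.6. DLK2, the gene most related to DLK1, read 15.1 CPM in cluster 2 and 1.54 to 5.28 in the others.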

How the data were processed

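The authors deposited filtered matrices of unnormalized counts per barcode: RNA counts (UMIs) for each gene and ATAC counts for each peak. Per the submitters' processing notes the build was GRCh38 and the tools Cell Ranger and Cell Ranger ARC 2.0.0. The sources used here name no gene annotation or strand setting for the counting. Peaks were called separately for each matrix. The matrix of both portions together and the long reads were not used here. 98.9% of 36366 genes lay at their GENCODE 44 position. The 80% portion held 95455518 UMIs and 63920767 ATAC counts, and the 20% portion 14346346 and 12850543.

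UMIs of the 80% portion were log-normalized to 10000 per nucleus, and 2000 variable genes (3 of them in the window), 30 components and 20 neighbours gave Louvain clusters (Seurat 5.3.0) at the lowest resolution with at least 5 clusters (0.03). ATAC clusters for comparison used components 2 to 30 of latent semantic indexing, with the peaks of the window left out. Nuclei of the 20% portion took the cluster their profile correlated with most over 1997 genes, a rule that returned 97.6% of 80% nuclei to their own cluster. Doublets (Scrublet in scanpy 1.11.5, expected rate 0.06, with the locus genes not left out) were kept in the main values and left out in an alternative. Counts were summed per cluster and divided by the cluster's total (CPM). A feature needed 30 counts in a cluster to be tested, and was called at 4-fold over every other cluster, each taken at no less than 3 counts. Intervals were 95% exact Poisson or Clopper-Pearson. With 1 library per portion no p-value was computed. The fold rule was tested on simulated counts with known folds. The members, list genes called by the rule or with most UMIs, genes most like MEG3, and called, start-proximal and the 5 largest peaks were named by rule. Other peaks, COL1A1, DLK2, IGF2 and ZFP57, and the genes of the finer sets were picked with their values in view. The members and lists were chosen with earlier results of these data known.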

Additional observations from a re-analysis of the deposited data

How the results depend on the processing

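RNA cluster 0 held the highest MEG3 and MEG8 level in every alternative on RNA clusters, and the alternatives on ATAC clusters use another partition of the nuclei. Of 85 alternative values 50 moved by less than their counting interval, or for counts of calls stayed within 1.5 times, and 35 moved more. Without doublet calls the MEG3 fold over the next cluster was 27.1 and the MEG8 fold 23.8, and the mean of CPM per nucleus gave 18.98 and 18.97. With ATAC clusters in place of RNA clusters the folds were 7.12 and 7.65, a MEG3 UMI was seen in 56.8% of the highest cluster, and the ATAC fold of the locus was 1.68, with cluster 2 of that partition highest. Thinned to 5000 UMIs, 72.1% of cluster 0 nuclei held a MEG3 UMI. In the 20% portion the share was 86.6%, with 1 peak and 2 genes called. Peaks over 1000 bp from a gene start gave an ATAC fold of 1.03 (0.971 to 1.09), so the lead of cluster 3 over cluster 0 was then within counting error. The 2-fold rule called 18 peaks and the 10-fold rule 0 peaks and 2 genes. With 200 kb in place of 600 kb the ATAC fold of the upper flank was 2.63, for cluster 3.

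Further alternatives were chosen after seeing the data. With cluster 3 divided by ATAC cluster, 3b being taken out of it, the ATAC fold was 1.40, and without doublet calls as well 1.44, beside MEG3 and MEG8 folds of 27.1 and 23.8. With 6 ATAC clusters the folds were 9.98 for MEG3, 10.7 for MEG8 and 1.42 for ATAC, and 82.2% of the highest cluster held a MEG3 UMI. The 20% portion without doublet calls gave 26.8, 31.0 and 87.4%, with 1 peak and 2 genes called. Without barcodes found in both portions it gave a MEG3 fold of 18.7, 89.3% and an ATAC fold of 1.12 (0.914 to 1.37), with 1 peak and 2 genes called. Without doublet calls the ATAC fold of that portion was 1.13 (0.998 to 1.27), so in both settings the lead of cluster 3 was within counting error. The cause of these shifts was not tested. No paired analysis was possible because each portion has 1 library of each kind and no groups of samples were compared.

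The clusters stand in for the lines without genotype labels, and whether each holds 1 line was not tested. In cluster 3, EPCAM read 678 CPM in set 3a and 35.7 in set 3b, and LOX 22.6 and 252. The pooled values of cluster 3 thus cover unlike nuclei. The portions come from 1 mixture, so they say nothing about variation between cultures. At 3 UMIs DLK1 cannot be ranked between clusters, and single peaks rest on few counts, such as 71 for peak 51.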

Other observations

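DIO3, the imprinted deiodinase gene at the far end of the same domain, and its antisense RNA DIO3OS lie above the window. DIO3 had 41 UMIs in all, at 0.623 CPM in cluster 0, 0.939 in cluster 3, 0.203 in cluster 4 and 0 in clusters 1 and 2. DIO3OS had 267 UMIs and read 4.96, 2.85, 0.313, 0.738 and 0.203 CPM in clusters 0 to 4, with cluster 0 highest and A549-like cluster 1 next at a fold of 1.74. Without doublet calls it read 4.88, 2.93, 0.317, 0.575 and 0. In the 200 kb above the window the 8 peaks read 14.01, 27.1, 14.08, 71.3 and 14.9 ATAC CPM, 2.63-fold (2.17 to 3.19) higher in cluster 3 than in the next cluster, and its 2 genes held 2 UMIs.

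KCNQ1OT1, the noncoding RNA of another imprinted domain, read 65.0, 50.3, 0.783, 32.6 and 6.30 CPM in clusters 0 to 4. PEG10, an imprinted gene derived from a retrotransposon as RTL1 is, read 458 CPM in cluster 3 and 15.9 in cluster 0, 3.51-fold over the next cluster and so under the 4-fold rule. Both were singled out after their values were seen.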
